A study of Mus musculus with 6 samples.

Results

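The minor spliceosome protein genes are a set of 8 genes, Snrnp25, Snrnp35, Snrnp48, Pdcd7, Zmat5, Zcrb1, Rnpc3 and Zrsr2, whose products belong to the splicing machinery for U12-type introns. They were chosen by gene symbol out of the 46072 genes of each library, and each symbol matched 1 gene. The study injected siRNA against Son, which encodes a nuclear speckle protein that binds RNA and takes part in splicing, into mouse zygotes and sequenced RNA of the resulting embryos at the 4-cell stage. There were 3 control libraries and 3 Son siRNA libraries of the same stage. The labels give neither the strain, the number of embryos in a library, the content of the control injection nor the litters, so a p-value here measures only how these libraries vary, which may be technical. cDNA was made with Smart-Seq2, a full-length protocol that starts from oligo(dT) and does not record the strand.

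Most introns are removed by the major spliceosome, but a small class, named U12-type after the RNA that pairs with their branch site, is removed by a separate minor spliceosome. In it the U11 and U12 small nuclear ribonucleoproteins, joined as 1 particle, take the place of U1 and U2 and recognise the start and the branch site of the intron together. The 7 genes other than Zrsr2 encode proteins found in that particle and not in U1 or U2, while Zrsr2 encodes a relative of U2AF that recognises the end of such introns. Other parts, such as the SF3B complex and most proteins of the tri-snRNP, serve both spliceosomes.

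Snrnp48 and Rnpc3 are known to carry a regulatory element made of repeated copies of the start of a U12-type intron, which the U11 particle binds. The element is shown because it is the sequence by which these 2 members are tied to the particle that they help to build. GENCODE transcripts were searched on the sense strand for GTATCCTT and ATATCCTT, and for pairs of these words at most 12 bases apart; a pair cannot overlap. Of the 8 members, only Snrnp48 and Rnpc3 held either word in an annotated transcript, and both held a pair. Either word was present in 11.4% of 21951 protein-coding genes, but a pair in only 4 of them (0.0182%), the others being Slc8a1 and Vmn2r17. Introns were searched only where an annotated transcript retains them, so these shares leave out most intron sequence. In Rnpc3 the pair lies in the 3′ UTR of 3 coding transcripts, at chr3:113607235-113607258 on the minus strand of GRCm38. In Snrnp48 it lies at chr13:38214666-38214695 on the plus strand, inside a transcript annotated as a retained intron. The capitals mark the words, 5′ to 3′:
Rnpc3: gtGTATCCTTtcttGTATCCTTtt
Snrnp48: caGTATCCTTtttgcaaatgATATCCTTtt
A match is a description of the letters only. The deposited values are 1 count per gene, so they do not separate the transcripts with and without the element.

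The libraries held 104634855 to 118865650 estimated counts each, of which mitochondrial genes took 9.79% to 17.5%. Son itself had 249, 322 and 332 CPM (counts scaled to library size with TMM factors) in controls and 41, 28.0 and 25.1 CPM after siRNA, so the siRNA libraries had 10.4% of the mean control level (edgeR adjusted p = 0.00991; 0.0617 with the replicate number as a block, and 0.0648, 0.0709 and 0.136 without siRNA library 1, 2 and 3). All 11 early embryo and oocyte markers were present in every library, but their summed level was 4815 to 6230 CPM in controls and 3242 to 3621 CPM after siRNA. Of these markers 1 passed the test: Dppa2, a regulator of early embryonic genes, fell from 2536 ± 729.7 to 928 ± 57.3 CPM (edgeR adjusted p = 0.0378). It made the largest part of the fall in the sum. Of the 100-base stretches of Dppa2, 23.9% also occur in other genes, so its count is uncertain. Of the 11 markers, 7 had a log2 fold change below 0 and 4 above. The groups did not overlap for 4 lower markers, among them Pou5f1 at 28.4% and Tead4 at 49.6% of the control mean. They also did not overlap for 2 higher ones, Oosp1 at 409.9% and Zp3 at 158%, and only Dppa2 passed. Over all genes tested, 11.6% were lower and 12.1% higher without overlap. The part of these marker changes in the members' values was not tested. Of 8 cumulus cell markers 0 were present in every library, with Inha, Fshr and Foxl2 at 0 throughout, and their summed level was at most 0.872 CPM in a control and 0.316 CPM in an siRNA library. Of 6 sperm markers 1 was present in every library, Odf1 and Tnp2 were at 0, and the sum was at most 1.14 and 0.905 CPM. Of 7 blood markers 3 were present in every library, Hba-a1, Hba-a2 and Cd68, and Ptprc, Hbb-bt and Hbb-bs were at 0. The sums were 10.7 to 15.1 CPM in controls and 11.3 to 14.6 CPM after siRNA. Hba-a2 was higher after siRNA without overlap, at 2.10 ± 0.337 and 3.66 ± 0.222 CPM (edgeR adjusted p = 0.398). Cd68, at 61.5% of the control mean, and Hba-a1, at 94.1%, overlapped between groups. The part of other cell types in the results was not tested beyond these levels.

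The comparison asked whether knockdown of Son was accompanied by a change in the RNA of the minor spliceosome proteins. All 8 genes were well above the filter on low counts and were tested, and 0 of them rose or fell (edgeR quasi-likelihood test, adjusted p below 0.05). Over the 17788 genes tested, 0.989% passed (0.899% as lower and 0.0899% as higher), so 0 of 8 is near the background. At an unadjusted p under 0.05 there was 1 member, Snrnp35, where 14.7% of all genes tested reached that level, and DESeq2's Wald test called 0 members, where 8.99% of the genes it gave an adjusted p passed. Of the members, 5 had a log2 fold change below 0 and 3 above 0, with a median of -0.09; over all genes 8669 were below and 9119 above, with a median of 0.02. In bulk samples such as these, fewer cells of a type and less RNA per cell cannot be told apart.

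**Figure D1:**
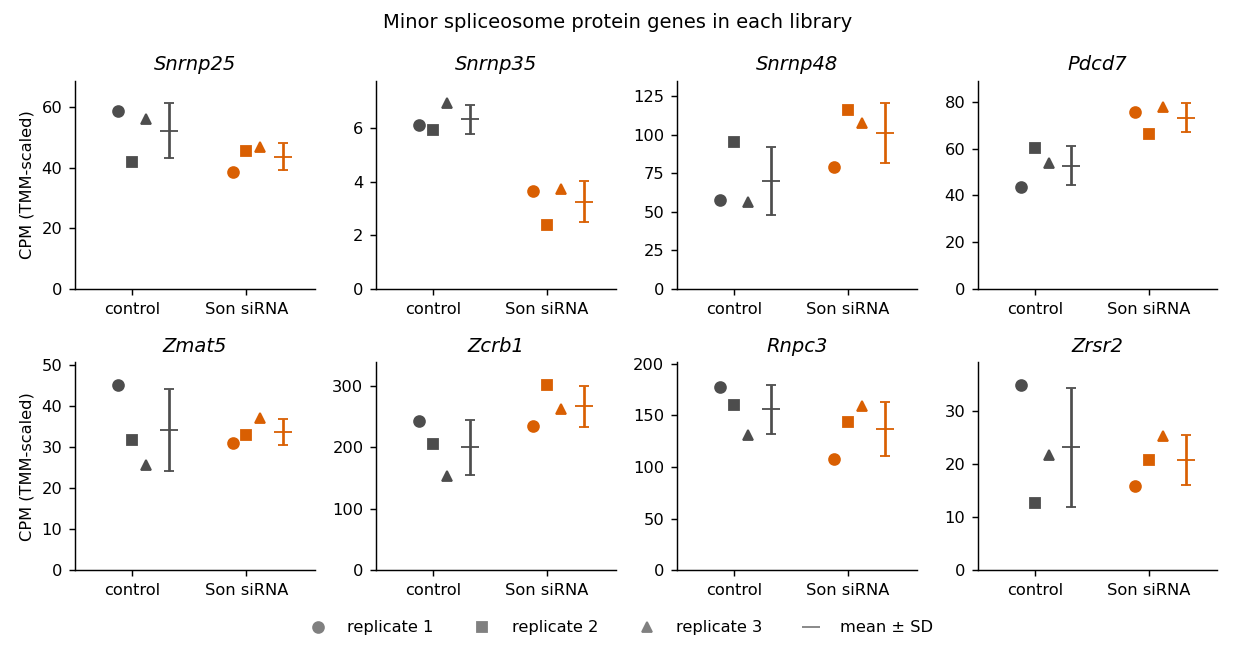
Level of each gene in each library, in TMM-scaled CPM on a linear axis that starts at 0; points are libraries, with shape for the replicate number, and bars beside them are the mean ± SD of 3 libraries. Control and Son siRNA libraries separate for Snrnp35, which was lower after siRNA, and for Pdcd7, which was higher, and overlap for the other 6.

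Snrnp35 had the lowest CPM of the set, before any division by length, and the lowest unadjusted p. It encodes a protein of the U11 particle, a relative of the U1 protein encoded by Snrnp70, and lies on chromosome 5 from 124483134 to 124491124 (ENSMUSG00000029402). Controls had 6.11, 5.92 and 6.92 CPM, and siRNA libraries had 3.63, 2.37 and 3.74 CPM. Every siRNA library was below every control, with siRNA library 2 the lowest. The means were 6.31 ± 0.530 and 3.25 ± 0.759 CPM (SD, n = 3 each), 51.5% of the control level, and the log2 fold change was -0.96 (95% interval -1.79 to -0.12). The difference did not pass the test over all genes (edgeR adjusted p = 0.268, unadjusted p = 0.0287). The gene rested on 587, 672 and 666 estimated counts in controls and 440, 278 and 495 after siRNA.

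Snrnp25 and Snrnp48 encode further proteins of the U11 particle. Snrnp48, whose product contacts the start of the U12-type intron, lies on chromosome 13 from 38204938 to 38227665 (ENSMUSG00000021431). It had 57.9, 95.3 and 56.3 CPM in controls and 79.4, 116 and 108 CPM after siRNA. Control 2 stood above its fellow controls and above siRNA library 1, so the groups overlapped. The means were 69.8 ± 22 and 101 ± 19.4 CPM, a log2 fold change of 0.54 (95% interval -0.10 to 1.17, edgeR adjusted p = 0.429). Without control 2 the log2 fold change was 0.83 with edgeR (edgeR adjusted p = 0.120). It was 0.80 with DESeq2, which called Snrnp48 higher (DESeq2 adjusted p = 0.0219). That DESeq2 fit called 1205 of 18975 genes higher and 1293 lower, so 1 of 8 members is near the background. No other setting called a member.

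Snrnp25 lies on chromosome 11 from 32205415 to 32208984 (ENSMUSG00000040767). Its levels were 58.8, 41.9 and 56.2 CPM in controls and 38.7, 45.5 and 47.1 CPM after siRNA. Control 2 lay among the siRNA libraries. The means were 52.3 ± 9.09 and 43.7 ± 4.46 CPM, and the interval of the log2 fold change, -0.81 to 0.29, included 0 (estimate -0.26, edgeR adjusted p = 0.701).

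Pdcd7 encodes the particle's protein that joins the U11 side to Rnpc3 on the U12 side, and Rnpc3 binds a hairpin of U12 RNA. Pdcd7 (chromosome 9 from 65346104 to 65359643, ENSMUSG00000041837) had 43.7, 60.4 and 53.9 CPM in controls and 75.5, 66.2 and 77.9 CPM after siRNA. Each siRNA library was above each control. The means were 52.7 ± 8.41 and 73.2 ± 6.18 CPM, a log2 fold change of 0.47 (95% interval -0.046 to 0.995), which did not pass the test (edgeR adjusted p = 0.384). With Snrnp35, Pdcd7 was 1 of 2 members whose groups did not overlap, 1 in each direction; among all genes tested 23.7% had no overlap, 11.6% lower and 12.1% higher, so 2 of 8 is near the background too.

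Rnpc3 (chromosome 3 from 113605067 to 113630149, ENSMUSG00000027981) had 177, 160 and 131 CPM in controls and 108, 143 and 159 CPM after siRNA. The lowest library was siRNA 1, and the other siRNA libraries lay within the range of the controls. The means were 156 ± 23.6 and 137 ± 26.2 CPM (log2 fold change -0.19, 95% interval -0.72 to 0.33, edgeR adjusted p = 0.781). The partners thus had fold changes on opposite sides of 0, and neither passed; the difference between them was not tested. Of the exonic bases of Rnpc3, 17.0% also belong to Amy1, an amylase gene, which had 3.64, 9.32 and 7.60 CPM in controls and 2.30, 3.19 and 2.63 CPM after siRNA (log2 fold change -1.34, edgeR adjusted p = 0.199). How reads from the shared bases were assigned between these genes is not known.

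Zcrb1 and Zmat5 encode zinc finger proteins of the particle. Zcrb1 (chromosome 15 from 93386097 to 93398334, ENSMUSG00000022635) had 242, 205 and 153 CPM in controls and 236, 302 and 263 CPM after siRNA. Control 1 was above siRNA library 1, and the remaining siRNA libraries were the highest of all. The means were 200 ± 44.9 and 267 ± 33.3 CPM (log2 fold change 0.41, 95% interval -0.11 to 0.94, edgeR adjusted p = 0.461). Zmat5 (chromosome 11 from 4704678 to 4737669, ENSMUSG00000009076) had 45.3, 31.8 and 25.8 CPM in controls and 31.0, 32.9 and 37.2 CPM after siRNA. The siRNA libraries fell inside the range of the controls. Its means were 34.3 ± 9.97 and 33.7 ± 3.19 CPM (log2 fold change -0.02, edgeR adjusted p = 0.983), and the 95% interval of -0.67 to 0.62 is the span of changes these libraries allow. Zmat5 shares 27.1% of its exonic bases with Cabp7 on the opposite strand, but Cabp7 was at 0.363 to 0.823 CPM in all libraries.

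Zrsr2, on chromosome X from 163935443 to 163958661 (ENSMUSG00000031370), varied most among controls. It had 35.0, 12.7 and 21.8 CPM there and 15.9, 20.8 and 25.4 CPM after siRNA. Controls 1 and 2 were the highest and the lowest of the 6 libraries. The means were 23.2 ± 11.2 and 20.7 ± 4.72 CPM (log2 fold change -0.16, 95% interval -1.05 to 0.72, edgeR adjusted p = 0.910). Its SD of log2 CPM was 0.73 in controls, against 0.12 for Snrnp35, the steadiest member there, and a median of 0.68 over all genes tested. After siRNA the SD of the members ranged from 0.12 (Pdcd7) to 0.36 (Snrnp35), with 0.41 as the median of all genes.

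**Figure D2:**
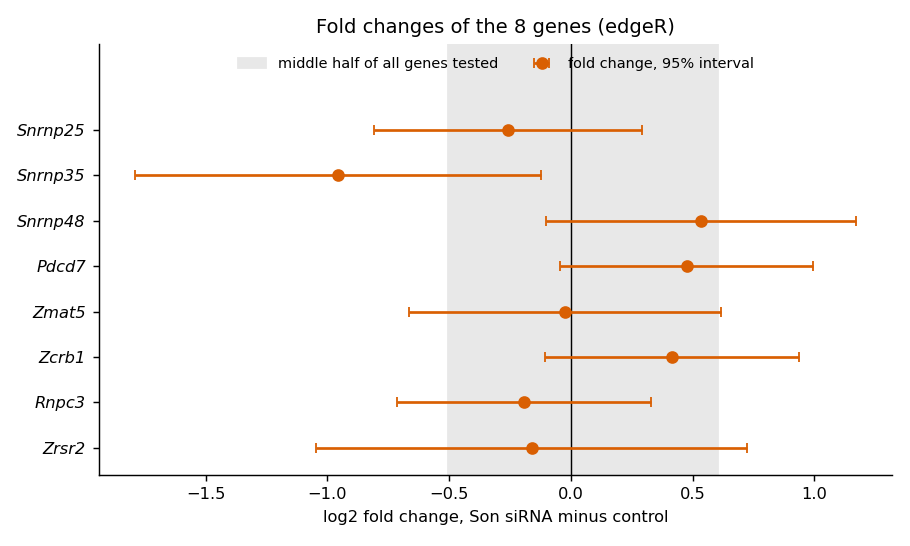
Log2 fold change of each gene, Son siRNA minus control, with its 95% interval from edgeR; the grey band spans the 25th to 75th percentile of all genes tested. Only the interval of Snrnp35 (-1.79 to -0.12) leaves out 0, before adjustment over all genes.

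Single libraries and the scaling moved these values without bringing a member past edgeR's threshold. Over 21 alternative settings the log2 fold change of Snrnp35 stayed below 0, from -1.08 to -0.64, and those of Snrnp48, Pdcd7 and Zcrb1 stayed above 0, with ranges of 0.40 to 0.83, 0.34 to 0.76 and 0.25 to 0.69. Those of Snrnp25, Rnpc3, Zmat5 and Zrsr2 turned sign in 1, 1, 7 and 3 settings. With total counts in place of TMM the median of all genes moved from 0.02 to 0.31, and the 4 genes stood at 0.06, 0.09, 0.27 and 0.18, each below that median. Zrsr2 was at 0.26 without control 1 and at -0.45 without control 2.

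**Figure D3:**
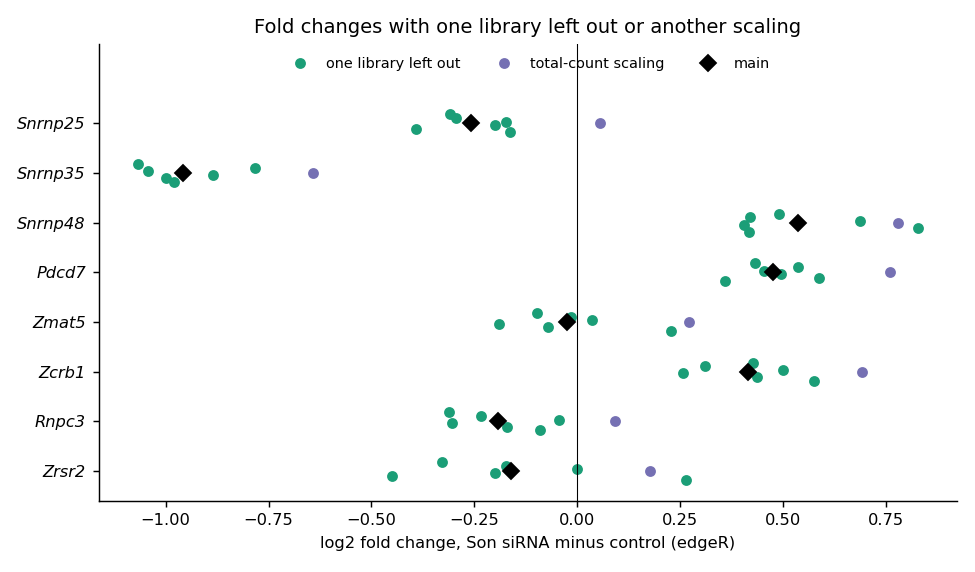
Log2 fold change of each gene from edgeR in the main fit (black diamond), with 1 library left out (6 green points) and with total-count scaling (purple point). Total counts move each gene up the axis, and only Snrnp35, Snrnp48, Pdcd7 and Zcrb1 keep 1 side of 0 throughout.

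The members also differed in level. Divided by the length of the annotated exons, control means were 65.1 ± 14.6 CPM per kilobase for Zcrb1, 50.2 ± 8.73 for Snrnp25, 27.5 ± 7.99 for Zmat5, 23.6 ± 3.56 for Rnpc3 and 21.1 ± 3.37 for Pdcd7. The remaining members formed a lower tier, with 6.89 ± 2.18 CPM per kilobase for Snrnp48, 4.69 ± 0.393 for Snrnp35 and 3.22 ± 1.56 for Zrsr2. In controls the library ranges of Zcrb1 and Snrnp25 overlapped, as did those of Zmat5, Rnpc3 and Pdcd7 with their neighbours in this order and those of Snrnp35 and Zrsr2. Those of Snrnp25 and Zmat5, of Pdcd7 and Snrnp48, and of Snrnp48 and Snrnp35 did not.

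After siRNA the order per length was Zcrb1 (86.8 ± 10.8 CPM per kilobase), Snrnp25 (42.0 ± 4.28), Pdcd7 (29.3 ± 2.47), Zmat5 (27.0 ± 2.55), Rnpc3 (20.6 ± 3.95), Snrnp48 (9.99 ± 1.91), Zrsr2 (2.88 ± 0.655) and Snrnp35 (2.41 ± 0.563). Only Pdcd7 and Zmat5, and Zrsr2 and Snrnp35, then overlapped as neighbours.

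These orders rest in part on which exons are counted. With the length of the longest transcript in place of all annotated exons, Zmat5 after siRNA stood above Pdcd7 without overlap, at 42.6 ± 4.02 against 30.3 ± 2.56 CPM per kilobase, and Rnpc3, at 29.2 ± 5.59, overlapped Pdcd7. Zrsr2 was above Snrnp35 after siRNA with either length, and with the longest transcript their ranges no longer overlapped (5.36 ± 1.22 against 2.75 ± 0.642). In controls the longest transcript placed Zrsr2 (5.99 ± 2.89 CPM per kilobase) above Snrnp35 (5.35 ± 0.449), again with overlap. It also separated Zcrb1 from Snrnp25 and Rnpc3 from Pdcd7 in controls, and made Snrnp25 overlap Zmat5. Zcrb1 stayed first and Snrnp25 second in both groups with either length, and Snrnp48, Snrnp35 and Zrsr2 stayed below the other 5 genes in their means.

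**Figure D4:**
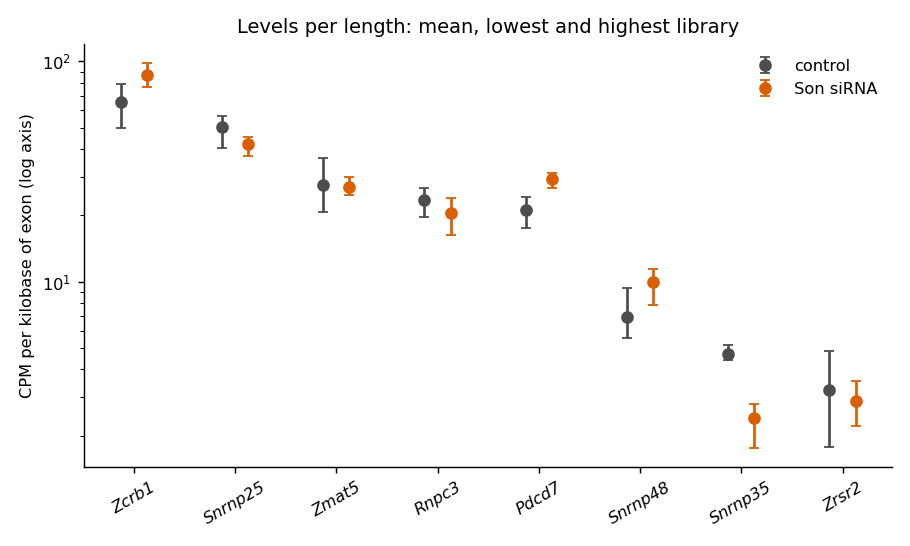
Level per length of each gene, in CPM per kilobase of annotated exon on a log axis, ordered by the control mean; points are means and bars run from the lowest to the highest of 3 libraries. Snrnp48, Snrnp35 and Zrsr2 sit below 12 CPM per kilobase in each library and the other 5 genes above 16.

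Relatives of the members in the major spliceosome gave a scale for these levels. Snrnp70 had 1.94 ± 1.17 CPM per kilobase in controls and 1.45 ± 0.360 after siRNA, beside 4.69 and 2.41 for Snrnp35. Before division by length Snrnp70 was the higher in controls, at 14.7 ± 8.89 CPM against 6.31 ± 0.530. After siRNA it had 11.1 ± 2.74 CPM against 3.25 ± 0.759. Its annotated exons cover 7618 bases and its longest transcript 4008, so the gap to Snrnp35 per kilobase depends on the length used. The aligned coding sequences of Snrnp35 and Snrnp70 are 56.7% identical over 720 columns without gaps. No unrelated pair was aligned, so identities given here have no background to set them against. U2af1, the small U2AF subunit, had 33.5 ± 9.40 and 26.8 ± 3.55 CPM per kilobase, beside 3.22 and 2.88 for Zrsr2, with 60.3% identity; 16.3% of its 100-base stretches also occur in other genes, so its count is uncertain. Zrsr1, an autosomal copy of Zrsr2 without introns, had 1.52 ± 0.919 and 1.74 ± 0.436 CPM per kilobase. The coding sequences of Zrsr1 and Zrsr2 are 79.0% identical, but no stretch of 100 bases of Zrsr2 occurs in another gene.

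Other proteins tied to the minor spliceosome were also not past the threshold. Of the 7 genes listed (Zrsr1, Scnm1, Rbm48, Armc7, Cript, Ccdc84 and Txnl4b), 0 rose or fell with edgeR and 0 with DESeq2. An unadjusted p below 0.05 was reached by 1 of them, Rbm48, where 14.7% of all genes tested reached it. The median log2 fold change was -0.20. Rbm48, which acts with Armc7 in the activated minor spliceosome, had 83.0, 71.5 and 69.3 CPM in controls and 34.5, 67.6 and 33.4 CPM after siRNA (log2 fold change -0.72, edgeR adjusted p = 0.329). The siRNA libraries were all below the controls, with library 2 close to them. Without siRNA library 2 DESeq2 called Rbm48 lower, as it did 778 of 18862 genes. Txnl4b had 31.5, 31.5 and 20.8 CPM in controls and 15.4, 23.8 and 12.5 CPM after siRNA (log2 fold change -0.69, edgeR adjusted p = 0.380). Of the RNA components, Rnu11 was at 0 counts in all libraries and Rnu12 at 5 counts in control 3 and 0 elsewhere. Rnu4atac and Rnu6atac were not found among the gene symbols of the libraries. These RNAs lack a poly(A) tail, which the cDNA step needs. All 134 annotated bases of Rnu11 also belong to Gm28872, so reads from it could be counted for that gene. The cause of the 0 counts was not tested.

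The proteins used by both spliceosomes included 1 gene that fell. Of 7 SF3B genes, which recognise the branch site in both machineries, Sf3b2 fell from 59.4 ± 8.50 to 20.7 ± 3.10 CPM (log2 fold change -1.52, edgeR adjusted p = 0.0378) and the list median was -0.45. With total counts, with the replicate number as a block, or without control 1, control 3 or any 1 siRNA library, edgeR did not call it; with the block, or without any 1 siRNA library, it called 0 of all genes. DESeq2 called Sf3b2 lower with all libraries and in each of its 6 fits with 1 library left out. Sf3b1, the subunit that holds the branch site, had 1228 ± 212 and 749 ± 146 CPM (log2 fold change -0.71, edgeR adjusted p = 0.172). Below 0.05 unadjusted were 3 SF3B genes, all lower: Sf3b2, Sf3b1 and Sf3b4. Sf3b4 had 78.3, 32.6 and 10.9 CPM in controls and 13.6, 17.1 and 16.1 CPM after siRNA, so the groups overlapped. Its log2 fold change was -1.38 (edgeR adjusted p = 0.317), and 32.5% of its 100-base stretches also occur in another gene. Of 13 tri-snRNP genes 0 passed with edgeR, 2 were below 0.05 unadjusted and DESeq2 called 1 lower. Their median log2 fold change was -0.43. Over all genes, in either direction, edgeR called 0.989%, 14.7% were below 0.05 unadjusted, and DESeq2 called 8.99%. The helicase gene Snrnp200 had 55.7 ± 7.19 and 34.0 ± 2.30 CPM (log2 fold change -0.71, edgeR adjusted p = 0.198), and Nhp2l1, also named Snu13, had 2069 ± 588 and 1300 ± 117 CPM (log2 fold change -0.67, edgeR adjusted p = 0.232).

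Among the 10 genes for U1, U2 and U2AF proteins that only the major spliceosome uses, 0 passed with edgeR and 2 were below 0.05 unadjusted. DESeq2 called 2 lower, Snrpc and Snrpa1, and the median was -0.31. The shares over all genes, in either direction, were 14.7% unadjusted and 8.99% with DESeq2. The list includes Sf3a2, which was at only 0.0453 to 0.308 CPM. Snrpc of U1 had 689 ± 148 and 322 ± 70.1 CPM (log2 fold change -1.10, edgeR adjusted p = 0.0832), and Snrpa1 of U2 had 372 ± 48.5 and 191 ± 63.6 CPM (log2 fold change -0.96, edgeR adjusted p = 0.131). The medians of these lists and of the members (-0.09) were not tested against each other.

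**Figure D5:**
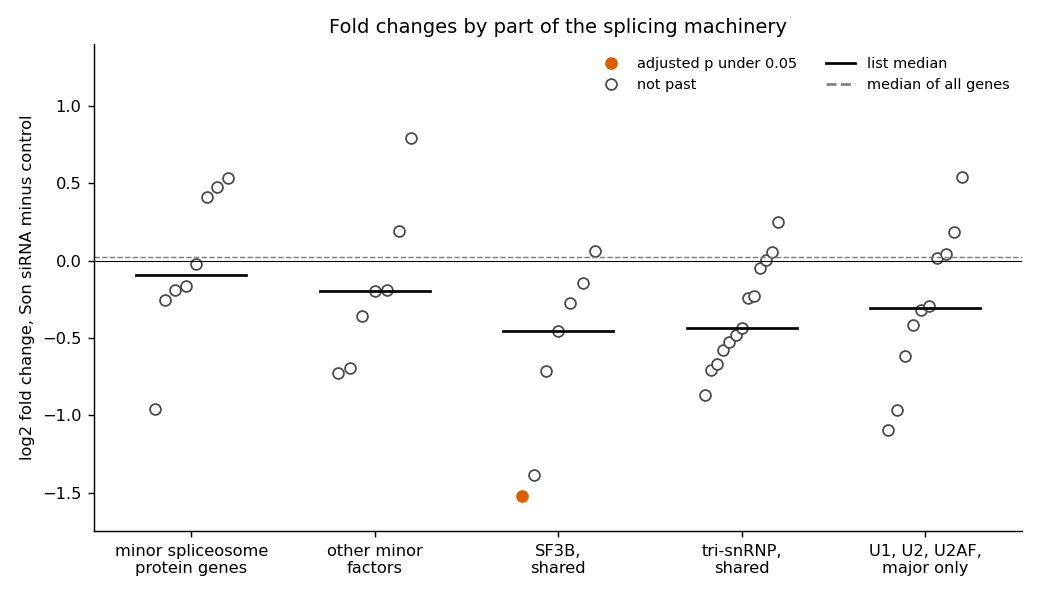
Log2 fold change, Son siRNA minus control, of each tested gene by part of the splicing machinery; filled points passed edgeR's adjusted p of 0.05, black lines are list medians and the dashed line is the median of all genes. Only Sf3b2, at -1.52, is filled.

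The genes whose pattern over the 6 libraries was most like that of Snrnp35 were Smc1a, a cohesin subunit, Ammecr1l and Tjp1, which encodes the tight junction protein ZO-1. Likeness was the root mean square difference of log2 CPM after centring each gene, over 7153 protein-coding genes with a mean of at least 5 CPM. It was 0.12, 0.14 and 0.14 for these genes, against a median of 0.65, a gap that follows from picking the smallest values. Smc1a had 128, 107 and 121 CPM in controls and 64.0, 48.3 and 63.4 CPM after siRNA (log2 fold change -1.02, edgeR adjusted p = 0.0738). As in Snrnp35, siRNA library 2 was the lowest, which the choice by likeness favours.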

How the data were processed

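RNA of 3 control and 3 Son siRNA libraries of 4-cell mouse embryos was compared, with groups and replicate numbers from the sample titles. The tools were StringTie 1.3.3b and HISAT2 2.0.5 on GRCm38, per the submitters' processing notes; how counts were made from them, and with which annotation, is not given in the sources used here. Each deposited table holds whole-number estimated counts per gene, made by the authors and not normalized, which were used unchanged. Of 46072 genes, 45137 matched GENCODE M21 by Ensembl identifier, which gave positions, exon lengths and transcripts on GRCm38. The listed symbol Snu13 was matched as Nhp2l1 through RefSeq synonyms.

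The test was edgeR 4.0.16 in R 4.3.3: filterByExpr, TMM, glmQLFit and glmQLFTest without a block, with Benjamini-Hochberg adjustment over all genes tested and a threshold of 0.05. SE and 95% intervals come from that fit. The test was checked on simulated counts with planted changes larger than any seen in the members. That check therefore does not bear on changes of the members' size. DESeq2 1.42.0 was run on the genes of the same filter. Depth was 104634855 to 118865650 estimated counts per library. The relation of these counts to read pairs is not stated, and PCR copies are not separate molecules, so counting error was not put on single values.

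Named genes were the 8 members, Son, the genes past the threshold and the 2 lowest unadjusted p of each other list, and 3 genes by likeness. Genes overlapping or homologous to members were added, as were Sf3b4, Sf3a2, Gm28872 and some cell type markers. Members and lists were chosen with earlier results of these data known. Genes with U12-type introns were not analysed here, since no intron sequence was used.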

Additional observations from a re-analysis of the deposited data

How the results depend on the processing

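With 3 libraries a group, a p that misses the threshold does not show equal levels, and neither isoforms nor intron retention were measured. Genes with U12-type introns, a planned list, were not run.

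The count of members called by edgeR was 0 in both directions in each setting; where edgeR called 0 of all genes, this says nothing about the members. DESeq2 with 1 library left out was added after seeing the data: it called 0 members lower and 0 to 1 higher. It called 0 to 1 of the other minor spliceosome genes, 1 to 2 SF3B genes (2 without control 2, control 3 or siRNA 2), 1 to 2 major spliceosome genes and 0 to 2 tri-snRNP genes lower. With all libraries DESeq2 called 1 SF3B gene, 2 major spliceosome genes and 1 tri-snRNP gene lower. In edgeR the SF3B count was 0 with total counts, with the replicate block and without each library except control 2.

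For all genes, the lower and higher counts were 35 and 7 with total counts, 91 and 9 with no filter, 245 and 43 with a filter of 50 counts in 3 libraries, 279 and 51 with counts divided by 4, and 850 and 373 with DESeq2. Leaving out 1 library gave 0 to 231 lower and 0 to 84 higher with edgeR; it was 0 and 0 without any 1 siRNA library. With DESeq2 the lower counts were 712, 1293 and 954 without control 1, 2 and 3 and 494, 778 and 491 without siRNA 1, 2 and 3, and the higher counts were 542, 1205, 821, 133, 231 and 97 in the same order. The DESeq2 fits with 1 library left out covered 18824 to 19132 genes each. The cause of the differing counts was not tested.

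The labels do not say that a replicate number pairs samples. Each gene's group mean was subtracted from its log2 CPM, and the remaining deviations were correlated over 7759 genes. Same-numbered libraries had correlations of -0.24, -0.30 and 0.03. Control 1 correlated best with siRNA 2 (0.34), and control 3 with siRNA 3. With so few libraries these values can neither show nor exclude a pairing. With the replicate block edgeR called 0 lower and 0 higher, Son stood at -3.29 (edgeR adjusted p = 0.0617) and Zmat5 at 0.011. Leaving out 1 library, Son ranged from -3.50 to -3.12 on the log2 scale, and was not past the threshold without siRNA 1, 2 or 3 (edgeR adjusted p = 0.0648, 0.0709 and 0.136).

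Some members changed sign. With total counts the log2 fold changes were 0.056 for Snrnp25, 0.090 for Rnpc3, 0.27 for Zmat5 and 0.18 for Zrsr2, and upper-quartile scaling gave 0.0054 for Zmat5. Without control 1, Zmat5 was at 0.23 with edgeR and 0.21 with DESeq2, and Zrsr2 at 0.26 and 0.24. Without siRNA 1, Zmat5 was at 0.036 and 0.028. Leaving out 1 library, edgeR gave a range of -0.19 to 0.23 for Zmat5 and -0.45 to 0.26 for Zrsr2. Per length of the longest transcript, control means were 63.7 CPM per kilobase for Snrnp25, 5.35 for Snrnp35, 10.4 for Snrnp48, 33.4 for Rnpc3, 115 for Zcrb1, 43.3 for Zmat5 and 5.99 for Zrsr2.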
